A study of Mus musculus with 8 samples.

Results

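A set of 10 genes that mark brown and thermogenic fat was followed through LaminB1-DamID maps of mouse 3T3-L1 cells. They are Adrb3, Dio2, Ppargc1a, Ppargc1b, Prdm16, Ucp1, Cox7a1, Cox8b, Cidea and Elovl3, 10 of the 22367 protein-coding genes placed on the mm9 genome. They were taken by name for their known part in heat production. The rule uses no measured value, but the members were chosen with earlier results of these data known. 3T3-L1 is an established mouse fibroblast line that turns into fat cells in culture, and is commonly used as a model of white rather than brown adipocytes. The maps cover 4 conditions. Preadipocytes (day 0) were untreated, with no shRNA named in their labels. Adipocytes were induced with insulin, dexamethasone, IBMX (3-isobutyl-1-methylxanthine) and rosiglitazone, kept in insulin and rosiglitazone, and taken at day 9. By their labels they carried a control non-target shRNA, an shRNA to Tmem120a, or shRNAs to Tmem120a and its paralog Tmem120b. These are called adipocytes, Tmem120a knockdown and double knockdown. For the protein level of Tmem120a, the authors instead name an empty shRNA vector as the control. Preadipocytes and adipocytes thus differ by label in the shRNA as well as in differentiation. The authors' results also describe preadipocytes as taken before confluency and after a shorter transduction than adipocytes. The parts of these cannot be told apart. All cells received lentivirus encoding Dam or LaminB1-Dam, and each condition has 1 library of each kind. There are no replicates, so no difference between conditions can be set against a spread and none carries a test. No RNA was analysed here, so neither the labelled cell states nor the knockdowns were checked against transcripts, and nothing below is an expression level.

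Brown adipocytes burn fuel to make heat. Noradrenaline acts through the beta-3 adrenergic receptor, thyroid hormone is activated inside the cell, the PGC-1 coactivators and PRDM16 drive the mitochondrial and brown fat gene programmes, and the uncoupling protein UCP1 lets protons leak across the inner mitochondrial membrane. White fat cells can take on part of this programme under cold or beta-adrenergic stimulation. LaminB1 lines the inner face of the nuclear envelope, and lamina-associated domains (LADs) are stretches of chromatin in contact with it, which hold few active genes in most cell types. In DamID the Dam methylase fused to LaminB1 marks GATC sequences that come close to the envelope, and the authors called LADs from the ratio of LaminB1-Dam to free Dam.

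Dio2 lay in a LAD in every list, Prdm16 in 2 lists and Ucp1 in 1, and the other 7 genes in none. A gene body (start to end of the annotated gene) met a LAD, by at least 1 base, for 2 members in preadipocytes, Dio2 and Prdm16 (26.2% of all protein-coding genes), and for 1 in adipocytes, Dio2 (23.3%). It did so for Dio2 again upon Tmem120a knockdown (27.5%) and for 3 members upon double knockdown, Dio2, Prdm16 and Ucp1 (29.5%). Promoters, read from 2 kb before to 500 bases after the start, met a LAD for 2, 1, 1 and 2 members in the same order, against 23.6%, 21.4%, 22.9% and 24.3% of all genes. Members in a LAD in all 4 lists numbered 1, Dio2 (19.3% of genes), and 7 of 10 met no LAD in any list (63.7%).

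Distances moved more than states did. The median distance from a member to its nearest LAD was 109 kb for preadipocytes, 405 kb for adipocytes, 269 kb upon Tmem120a knockdown and 49.0 kb upon double knockdown. All protein-coding genes had medians of 167, 281, 112 and 90.0 kb. The lists themselves held 3914, 2542, 5723 and 6971 LADs in the same order, with median lengths of 83.2, 103, 59.1 and 60.7 kb. In total these LADs covered 1193, 1198, 1164 and 1161 Mb. What part of the distances follows from the number of LADs was not tested. Members within 100 kb of a LAD numbered 4 in preadipocytes (43.5% of all genes), 3 in adipocytes (36.6%), 3 upon Tmem120a knockdown (48.4%) and 8 upon double knockdown (51.5%). With gaps under 50 kb between LADs closed, the members' medians kept the values above, but their order depended on short LADs. When only LADs of at least 100 kb were kept, the medians were 324, 444, 506 and 513 kb, so that the double knockdown had the longest, and members within 100 kb numbered 4, 2, 2 and 4, against 33.1%, 30.9%, 29.7% and 31.1% of all genes.

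**Figure D1:**
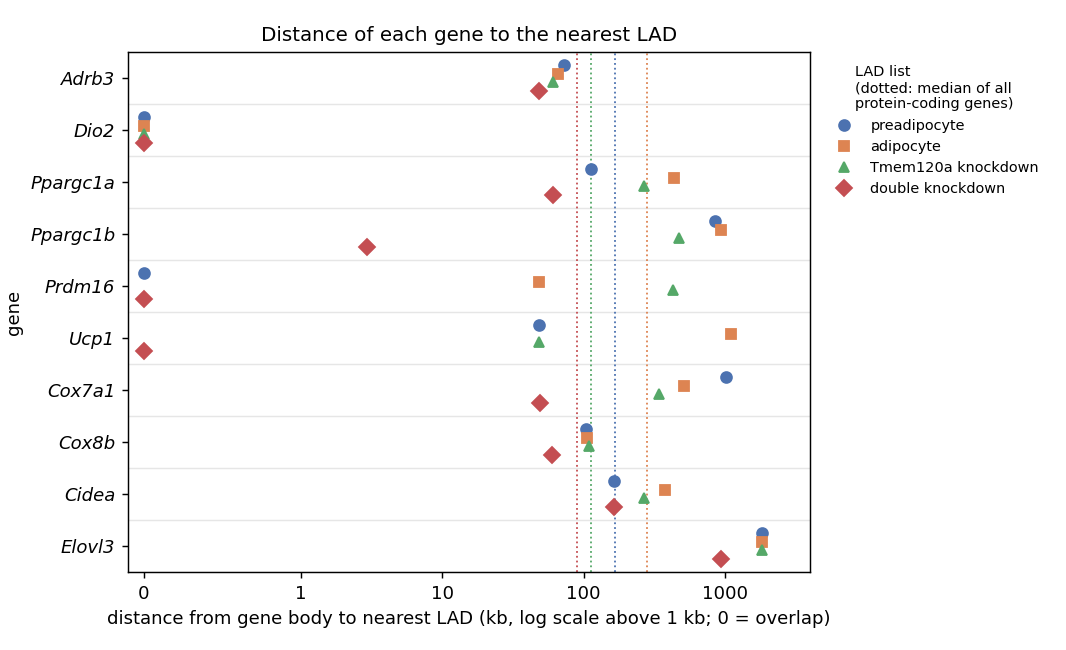
Distance from each gene body to its nearest LAD (kb, log scale above 1 kb, 0 meaning overlap) in the 4 lists, 1 point per gene and list, with the median of all protein-coding genes as a dotted line in the colour of the list. The double knockdown point lies at or left of the adipocyte point for each gene, and Dio2 sits at 0 in every list.

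Adrb3 (ENSMUSG00000031489.7, chromosome 8, 28336248 to 28340060, minus strand) encodes the beta-3 adrenergic receptor, through which noradrenaline starts the thermogenic response. It met no LAD. The nearest LAD lay upstream, 72.2 kb away in preadipocytes, 65.8 kb in adipocytes, 61.0 kb upon Tmem120a knockdown and 48.6 kb upon double knockdown. It was in each list a LAD that holds Tex24, Chrnb3, Chrna6 and Poteg, so that Adrb3 stood beside the same domain throughout. That domain was 3770 kb long in preadipocytes and 3728 kb in adipocytes, and its nearest piece was 179 kb upon Tmem120a knockdown and 403 kb upon double knockdown. The piece upon Tmem120a knockdown ended at 28579768, and a LAD of 3540 kb followed it there, from 28595407 to 32135161. The share of the 1 Mb window around the start of Adrb3 that lay in LADs was 42.8%, 43.4%, 42.3% and 40.3% in the same order.

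Dio2 (ENSMUSG00000007682.5, chromosome 12, 91962994 to 91976878, minus strand) encodes the type II deiodinase, which turns thyroxine into active thyroid hormone inside the cell. Its whole body and promoter lay in a LAD in all 4 lists, and it is the only member of which this held. What differed was the domain around it. The LAD over Dio2 measured 2608 kb in preadipocytes, 2591 kb in adipocytes and 2407 kb upon Tmem120a knockdown, and reached Nrxn3 in each. Upon double knockdown it was 149 kb (91870340 to 92019418) and held Dio2 alone among protein-coding genes. On its 3′ side the next LADs lay at 91839570 to 91863636 and, 2095 kb long, at 89705305 to 91800114. In all, 8 separate LADs then stood in the 1 Mb window, against 2, 3 and 3 in the other lists, and they filled 74.2% of it, against 86.0%, 92.8% and 87.6%. With gaps under 50 kb closed, LADs filled 85.7% of it upon double knockdown, against 89.5%, 94.2% and 88.9%. No other protein-coding gene starts within 500 kb of Dio2. A recruited region, the name used here for a deposited region in a LAD of adipocytes and not of preadipocytes, lay 408 kb away and took up 9.15% of the window.

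Ppargc1a (ENSMUSG00000029167.7, chromosome 5, 51845488 to 51958964, minus strand) encodes PGC-1alpha, a coactivator of mitochondrial biogenesis that cold exposure induces. It met no LAD, and the nearest one lay beyond its 3′ end in each list. That distance came to 112 kb in preadipocytes, 436 kb in adipocytes, 269 kb upon Tmem120a knockdown and 61.1 kb upon double knockdown. The 1 Mb window held 9.33% LAD sequence in preadipocytes, none in adipocytes, 4.42% upon Tmem120a knockdown and 24.7% upon double knockdown. The LAD of 24.8 kb nearest in preadipocytes was itself a released region, that is, a deposited region in a LAD of preadipocytes and not of adipocytes. None of its length was in a LAD upon Tmem120a knockdown and all of it (100%) was upon double knockdown, within a LAD of 83.9 kb. A minimum LAD length of 100 kb gave distances of 543, 436, 499 and 668 kb, so the gene was then farthest from a LAD upon double knockdown. Ppargc1a too has no other protein-coding gene start within 500 kb.

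Ppargc1b (ENSMUSG00000033871.8, chromosome 18, 61457790 to 61560085, minus strand) encodes PGC-1beta, the paralogous coactivator. It was far from LADs in 3 lists, at 843 kb in preadipocytes, 940.5 kb in adipocytes and 476 kb upon Tmem120a knockdown. Upon double knockdown a LAD of 19.4 kb that meets Pde6a ended 2.92 kb beyond its 3′ end. This is the shortest distance of any member outside a LAD, and it rests on that LAD alone. If LADs under 30 kb are left aside, it became 878 kb, and the distance upon Tmem120a knockdown, set by a LAD of 24.2 kb, became 974 kb, beyond that in adipocytes. The window shares were low throughout, at 0%, 0%, 2.36% and 1.94%.

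Prdm16 (ENSMUSG00000039410.9, chromosome 4, 153690234 to 154010982, minus strand) encodes a zinc finger coregulator that sets brown and beige fat identity. It met LADs in preadipocytes and upon double knockdown, but over different parts of the gene. In preadipocytes 21.7% of the body was covered, in adipocytes and upon Tmem120a knockdown 0%, and upon double knockdown 41.7%. Genes in LADs of those 2 lists alone make up 1.23% of all protein-coding genes. In preadipocytes a LAD of 138 kb (chromosome 4, 153953447 to 154091765) covered the promoter, the start and 57.5 kb of the 5′ end, and a second one (153666178 to 153702427) covered 12.2 kb of the 3′ end. Upon double knockdown 3 LADs covered 73.0 kb of the 3′ end (153687714 to 153763275) and, inside the gene, 27.5 kb (153809077 to 153836624) and 33.1 kb (153896745 to 153929801). The start then stood 72.6 kb from the nearest LAD, with the promoter outside. Together these LADs met 5 of 19 merged exons in preadipocytes and 17 of 19 upon double knockdown. Of the 9 annotated transcript starts, 5 lay in a LAD in preadipocytes and 4 upon double knockdown.

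The nearest LAD to Prdm16 in adipocytes was 20.7 kb long and lay 48.6 kb upstream, and upon Tmem120a knockdown it was 430.4 kb away. Counting only LADs of at least 30 kb, the adipocyte distance was 409 kb, close to that of the Tmem120a knockdown. Among LADs of at least 100 kb alone, the gene was still in a LAD in preadipocytes (17.9% of the body) but 599 kb from one upon double knockdown. Prdm16 is also the only member that a released region met (5.76% of all genes), and it met 2 of them. The one over the start, 106 kb long, had 0% of its length in a LAD in either knockdown. The one over the 3′ end, 36.2 kb long, had 0% upon Tmem120a knockdown and 40.6% upon double knockdown. The border inside the gene that is nearest to its start lies in an intron both in preadipocytes and upon double knockdown. These borders are shown to mark how the covered part differs, 20 bases on either side on the plus strand of mm9, with the GATC sequence at the border in capitals.
Prdm16 preadipocyte border, chr4:153953427-153953466: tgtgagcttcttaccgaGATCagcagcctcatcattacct
Prdm16 double knockdown border, chr4:153929782-153929821: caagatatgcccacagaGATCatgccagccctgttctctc

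Ucp1 (ENSMUSG00000031710.3, chromosome 8, 85814247 to 85822355, plus strand) encodes the uncoupling protein that defines brown fat. It lay outside LADs in 3 lists and wholly inside one upon double knockdown, promoter included. Its distance to the nearest LAD came to 48.2 kb in preadipocytes, 1100.1 kb in adipocytes, 48.7 kb upon Tmem120a knockdown and 0 upon double knockdown. Genes in a LAD of the double knockdown list alone make up 4.05% of all protein-coding genes, and those wholly in one 1.12%. The 1 Mb window around its start held 24.6% LAD sequence in 3 LADs in preadipocytes, none in adipocytes, 5.63% in 1 LAD upon Tmem120a knockdown and 44.7% in 6 LADs upon double knockdown. The share was thus lowest in adipocytes, and upon double knockdown it stood above that of preadipocytes.

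In preadipocytes Ucp1 stood in a gap, with a LAD that ended 55.5 kb upstream of its start and another that began 48.2 kb past its 3′ end and meets 4933434I20Rik and Clgn. All 3 LADs in the window were released regions. The nearest of these, 60.0 kb long (85870568 to 85930568), had 0% of its length in a LAD upon Tmem120a knockdown and 88.3% upon double knockdown. The Tmem120a knockdown LAD, of 56.3 kb, lay on the upstream side and meets Tbc1d9. The LAD over Ucp1 upon double knockdown (85810058 to 85860170) was 50.1 kb long, contains 120 GATC sites and also meets Elmod2. It drops out if LADs under 100 kb are left aside, and Ucp1 was then 23.8 kb from a LAD upon double knockdown, 55.5 kb in preadipocytes, 1249 kb in adipocytes and 1259 kb upon Tmem120a knockdown. With gaps under 50 kb closed, the body of Ucp1 was still wholly in a LAD upon double knockdown. LADs then filled 51.1% of its window, and the shares in the other lists did not change. Both borders of the deposited LAD over Ucp1 lie between protein-coding genes. They are shown, in the same form as those of Prdm16, to mark the stretch over the gene that was called a LAD upon double knockdown.
Ucp1 LAD start, chr8:85810038-85810077: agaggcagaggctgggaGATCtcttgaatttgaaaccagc
Ucp1 LAD end, chr8:85860151-85860190: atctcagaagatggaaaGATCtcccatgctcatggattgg

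**Figure D2:**
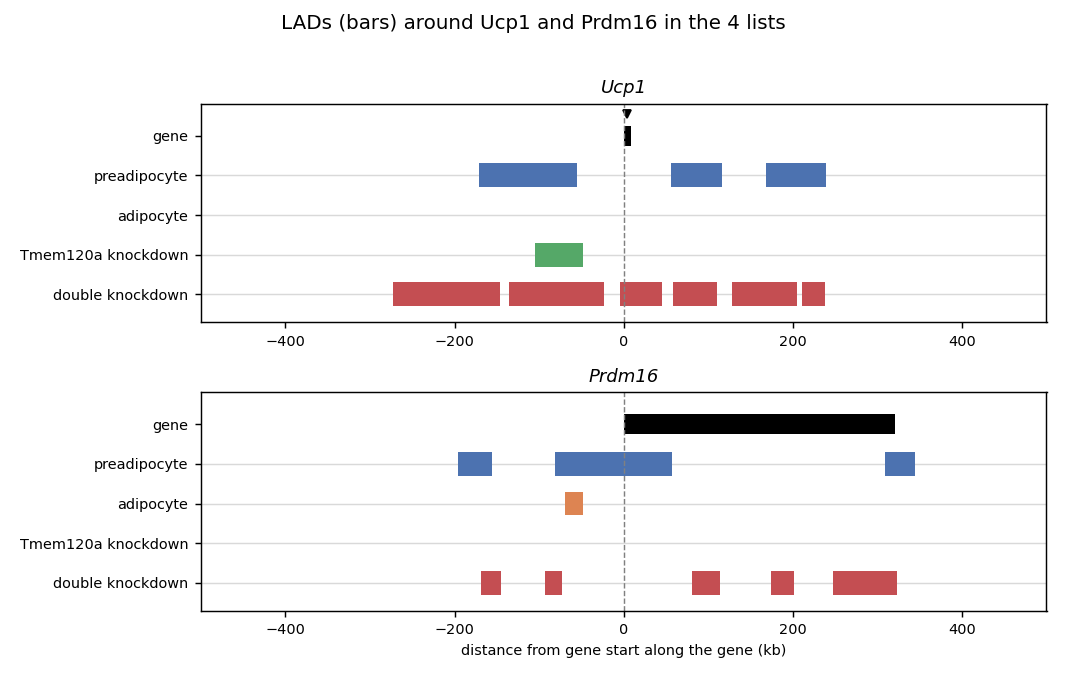
LADs as bars in the 4 lists over 500 kb on each side of the gene start of Ucp1 and Prdm16, against distance from the start along the gene (kb), with the gene as a black bar and a triangle over the short Ucp1. The Ucp1 window is empty in adipocytes and holds 6 LADs upon double knockdown, 1 of them over the gene, whereas the start of Prdm16 is in a LAD in preadipocytes alone.

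The promoters of 3 members that differ in LAD state were compared in sequence, as the 250 bases before the RefSeq start (RefSeq, GRCm38.p6), each placed on mm9 by an exact match. DamID reads only GATC sequences, and these are in capitals. The motif reads the same on both strands. The RefSeq start used for Dio2 lies upstream of the gene start given above. Dio2 was in a LAD in every list, Prdm16 in preadipocytes and Ucp1 upon double knockdown, with 100% of the 250 bases in a LAD in those lists and 0% in the others.
Dio2, chr12:91977479-91977728, minus strand: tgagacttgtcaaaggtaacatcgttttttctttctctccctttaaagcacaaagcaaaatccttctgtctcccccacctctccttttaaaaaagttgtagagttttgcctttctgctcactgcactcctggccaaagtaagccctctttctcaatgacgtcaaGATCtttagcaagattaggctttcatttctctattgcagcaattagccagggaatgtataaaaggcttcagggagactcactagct
Prdm16, chr4:154010983-154011232, minus strand: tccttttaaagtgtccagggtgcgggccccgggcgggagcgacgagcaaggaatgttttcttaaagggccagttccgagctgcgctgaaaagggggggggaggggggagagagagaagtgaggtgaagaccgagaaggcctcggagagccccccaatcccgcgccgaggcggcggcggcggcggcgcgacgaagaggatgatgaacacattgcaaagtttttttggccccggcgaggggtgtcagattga
Ucp1, chr8:85813997-85814246, plus strand: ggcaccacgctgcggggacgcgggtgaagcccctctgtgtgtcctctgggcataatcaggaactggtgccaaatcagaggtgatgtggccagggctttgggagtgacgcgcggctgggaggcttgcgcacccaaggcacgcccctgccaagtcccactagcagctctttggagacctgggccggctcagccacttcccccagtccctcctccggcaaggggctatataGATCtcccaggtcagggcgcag
The Dio2 and Ucp1 stretches hold 1 GATC each and that of Prdm16 none. Their G and C content was 41.6% for Dio2, 62.4% for Prdm16 and 64.8% for Ucp1, against a median of 52.4% over 32851 mouse promoters of this length, and they hold 2, 22 and 12 CpG, against a median of 6. Of the 6 members with an entry, which also include Ppargc1a, Cox7a1 and Cox8b, 4 hold a GATC, as do 41.9% of all 32851.

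Cox7a1 (ENSMUSG00000074218.2, chromosome 7, 30969190 to 30971047, plus strand) and Cox8b (ENSMUSG00000025488.8, chromosome 7, 148084842 to 148086345, minus strand) encode tissue-specific subunits of cytochrome c oxidase, the last complex of the respiratory chain, found in heart, muscle and brown fat. Both lie among many genes, with 52 and 49 other gene starts within 500 kb. Neither met a LAD. Cox7a1 was 1023 kb from the nearest LAD in preadipocytes, 513 kb in adipocytes, 341 kb upon Tmem120a knockdown and 49.4 kb upon double knockdown. Its surroundings were nearly free of LADs, with window shares of 0%, 0%, 2.15% and 7.76%, and the near LAD of the double knockdown was 18.0 kb long. If LADs under 30 kb are left aside, the distances of Cox7a1 were 1023, 1030.0, 1033 and 459 kb, so it was then no closer in adipocytes or upon Tmem120a knockdown than in preadipocytes. Cox8b had LADs on its downstream side instead, the nearest of which holds olfactory receptor genes in 3 lists and Cyp2e1 and Syce1 in adipocytes. It was 104.8 kb from the nearest LAD in preadipocytes, 107 kb in adipocytes, 109 kb upon Tmem120a knockdown and 59.6 kb upon double knockdown. LADs filled 39.4%, 38.2%, 36.2% and 43.9% of its window.

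Cidea (ENSMUSG00000024526.8, chromosome 18, 67503218 to 67527448, plus strand) encodes a lipid droplet protein that is abundant in brown fat. It met no LAD, and LADs in its window lay on the upstream side. The nearest was 163 kb away in preadipocytes, 374 kb in adipocytes, 269 kb upon Tmem120a knockdown and 165 kb upon double knockdown. In preadipocytes and upon double knockdown that LAD meets Gnal, 34.6 and 40.3 kb long. The preadipocyte LAD was a released region, with 0% of its length in a LAD upon Tmem120a knockdown and 96.3% upon double knockdown. LADs filled 12.7%, 6.35%, 13.0% and 20.2% of the window. Among LADs of at least 100 kb the distances were 1156, 452, 463 and 428 kb, with preadipocytes then the farthest.

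Elovl3 (ENSMUSG00000038754.3, chromosome 19, 46206387 to 46210184, plus strand) encodes a fatty acid elongase that cold exposure induces in brown fat. It was the member farthest from LADs in every list, at 1841, 1811, 1822 and 933 kb, and no LAD fell within its window in any of them. The distance upon double knockdown was set by a LAD of 32.0 kb, and was 1973 kb among LADs of at least 100 kb.

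**Figure D3:**
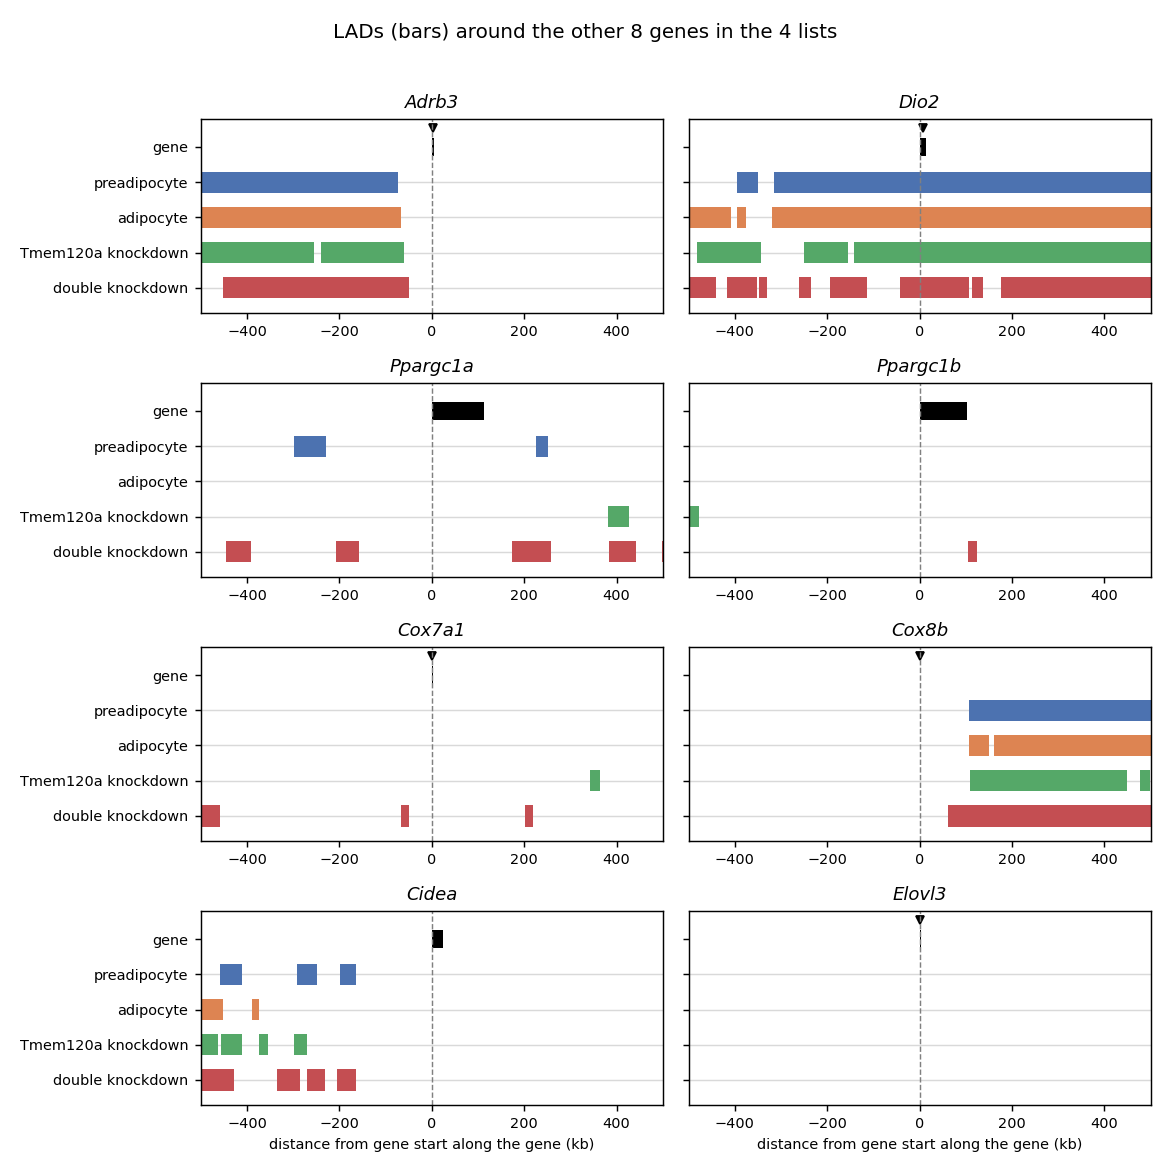
LADs as bars in the 4 lists over 500 kb on each side of the start of the other 8 genes, against distance from the start along the gene (kb), with genes as black bars and triangles over those under 15 kb. Adrb3 and Cox8b have LADs on 1 side in every list, Dio2 lies in a LAD in every list, with 8 LADs in its window upon double knockdown, and the Elovl3 window holds none.

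From preadipocytes to adipocytes Prdm16 left a LAD, 1 member of 10 (4.81% of all genes), and no member entered one (1.88%), so that 1 changed state (6.69%). None did if at least 50% of the body is asked for, as 21.7% of Prdm16 was covered. The nearest LAD was farther in adipocytes for 6 members (55.3%) and closer for 3 (23.0%), the latter being Adrb3, Cox7a1 and Elovl3. Window shares fell for 5 members (41.4%), rose for 2 (23.9%), Adrb3 and Dio2, and were 0% in both lists for the other 3. They fell by 24.6 percentage points for Ucp1, and fell by 19.4 for Prdm16, the largest falls among the 10, and rose by 6.83 for Dio2. The 5 with lower shares are the members with a released region within 500 kb of the start (40.9% of all genes), while recruited regions lay that near to 2, Dio2 and Cidea (24.3%), and none met a member's body (3.08%). With a minimum LAD length of 100 kb the nearest LAD was closer for 4 members and farther for 5 (28.8% of all genes closer), and window shares were higher for 3 and lower for 3 (23.8% of all genes higher).

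The Tmem120a knockdown and the double knockdown were each set against the adipocyte list. Both comparisons share that list, so an error in it enters both. Upon Tmem120a knockdown no member changed state (8.08% of all genes did), with 0 leaving LADs (1.95%) and 0 entering them (6.13%). The nearest LAD was closer for 6 members (59.5%), Adrb3, Ppargc1a, Ppargc1b, Ucp1, Cox7a1 and Cidea, and farther for 3 (19.0%), Prdm16, Cox8b and Elovl3. Window shares were higher for 5 (47.0%) and lower for 4 (28.1%). Ucp1 went from 1100.1 kb in adipocytes to 48.7 kb upon Tmem120a knockdown, and Prdm16, whose near LAD in adipocytes was the one of 20.7 kb, from 48.6 to 430.4 kb. These counts turned with the LAD length. At a minimum of 30 kb, 4 members were closer (54.2% of all genes) and 5 farther, with 3 window shares higher (38.3%) and 3 lower. At a minimum of 100 kb, 2 were closer (32.8%) and 7 farther, with 1 window share higher (16.7%) and 3 lower.

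Upon double knockdown Prdm16 and Ucp1 entered LADs, 2 of 10 members (8.36% of all genes), and none left (2.10%), so that 2 changed state (10.5%). If at least 50% of the body is asked for, Ucp1 alone did. The nearest LAD was closer for 9 members (64.2%) and farther for none (14.6%), Dio2 being inside in both lists. It was also closer for 91 of 113 other thermogenic pathway genes, 16 of 17 white adipocyte genes and 8 of 18 skeletal muscle genes, all described below. It was farther for 17, 1 and 5 of these. Window shares were higher for 7 members (52.5%) and lower for 2 (26.3%), Adrb3 and Dio2. For 7 members the nearest LAD was closer upon double knockdown than in each other list (32.2%), and for 1, Cidea, this was so in preadipocytes (13.4%). The adipocyte list was the closest for 0 members (4.30%), and so was the Tmem120a knockdown list (22.1%). These counts depended on the LAD length. With LADs of at least 100 kb, 4 members were closer upon double knockdown than in adipocytes and 5 were farther, against 44.0% of all genes closer, and neither Prdm16 nor Ucp1 was in a LAD. With at least 30 kb, 9 were still closer (60.3% of all genes) and both genes were in a LAD. With gaps under 50 kb closed, 9 were closer and 0 farther (64.0% of all genes closer). Window shares were then higher for 7 and lower for 2, and both genes were in a LAD.

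**Figure D4:**
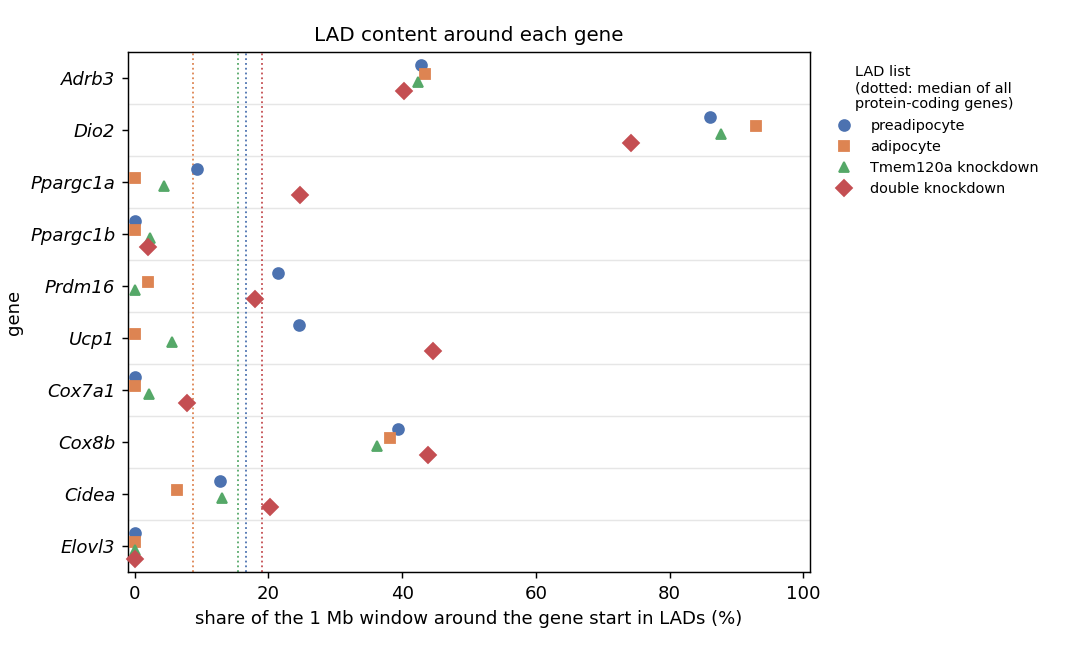
Share of the 1 Mb window around each gene start that lies in LADs (%), 1 point per gene and list, with the median of all protein-coding genes as a dotted line in the colour of the list. Ucp1, Ppargc1a and Cidea have the lowest share in adipocytes and the highest upon double knockdown, whereas Adrb3 and Dio2 have their highest in adipocytes.

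The median window share over the 10 members was 17.1% in preadipocytes, 1.04% in adipocytes, 5.03% upon Tmem120a knockdown and 22.4% upon double knockdown. All protein-coding genes had medians of 16.7%, 8.80%, 15.5% and 19.0%, so the order of the lists was the same for both, as 1 value per list and with no test. The place of the adipocyte list depended on the window. With 1 Mb on each side its median over the members was 15.8%, above the 14.3% upon Tmem120a knockdown, and both were 0% with 200 kb on each side or with LADs of at least 100 kb. Windows with no LAD at all surrounded 3, 5, 2 and 1 members, against 32.7%, 40.2%, 23.1% and 20.3% of all genes.

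By their medians, features of the sequence that bear on what DamID can read were close to those of other genes, but single members differed widely. The members' median length was 11 kb, against 15.4 kb over all protein-coding genes, and 6 of 10 are shorter than 15 kb, the length of the shortest LAD in any list. Their windows held a median of 2.46 GATC per kb against 2.49, a G and C content of 44.8% against 44.1%, and 15.5 other gene starts against 15. Among members the window of Dio2 had the lowest G and C content, 39.1%, at percentile 7.98 of all genes. That of Prdm16 had the highest, 51.7%, at percentile 99.4, while Ucp1 had 44.2%. The GATC density of the windows ran from percentile 17.7 for Elovl3 to 95.0 for Cox8b. The body of Ucp1 holds 16 GATC sites, of the 120 in the double knockdown LAD that encloses it.

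The other genes of the thermogenic pathway, a list of 113 hormones, receptors, regulators, mitochondrial proteins, lipid genes and oxidase subunits, stood mostly outside LADs. By gene body 12 met one in preadipocytes (10.6%), 7 in adipocytes (6.19%), 10 upon Tmem120a knockdown (8.85%) and 14 upon double knockdown (12.4%), beside the shares of all protein-coding genes given above. None was met in any list by 93 of the 113, beside 63.7% of all genes. The median distances of the 113 to a LAD were 453, 590, 255 and 191 kb. From preadipocytes to adipocytes 5 left LADs and none entered, beside 4.81% and 1.88% of all genes. These were Lhx8, a brown preadipocyte marker (100% of the body in preadipocytes), Nrip1, a corepressor of oxidative genes (2.51%), the oxidase subunit Cox8c (100%) and the elongases Elovl2 and Elovl4 (100% each). Thrb, Bmp7, Esrrg, Gatm and Ryr2 met LADs in all 4 lists, beside 19.3% of all genes.

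Upon Tmem120a knockdown 3 of the 113 met a LAD that they did not meet in adipocytes, beside 6.13% of all genes. They were Esrrb, an orphan nuclear receptor (48.8% of the body), Gk, the glycerol kinase (47.8%), and Pank1, which starts coenzyme A synthesis (3.74%). Upon double knockdown 9 of the 113 did, beside 8.36% of all genes. Among regulators these were Ppara, the fatty acid sensor (39.3%), Esrrb (34.0%), Irf4, a partner of PGC-1alpha (8.13%), and Mecom, a PRDM16 paralog (5.51%). The rest were Pank1 (38.2%), Eva1a (37.2%), Elovl6 (26.3%), Gk (22.5%) and Cox8c (100%). The 2 that left LADs there (2.10% of all genes) were Zic1, a brown fat marker, and the oxidase subunit Cox7c, both wholly inside a LAD in the other 3 lists. Their bodies were 5.18 and 0.295 kb from a LAD upon double knockdown, and the promoter of Cox7c still met one. By role, 2 of the 32 regulators met a LAD in adipocytes and 5 upon double knockdown, beside 23.3% and 29.5% of all genes. The counts were 2 and 5 of the 24 mitochondrial and futile cycle proteins, and 2 and 2 of the 14 receptors and hormones. They were 1 and 1 of the 14 oxidase subunits, and 0 and 1 of the 17 lipid genes. The 12 deiodinases and surface markers had none in any list, as 63.7% of all genes. Among LADs of at least 100 kb, 5 of the 113 met a LAD in adipocytes, 6 upon Tmem120a knockdown and 5 upon double knockdown. The shares of all genes at that length are not given here, so nothing is read from these counts.

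**Figure D5:**
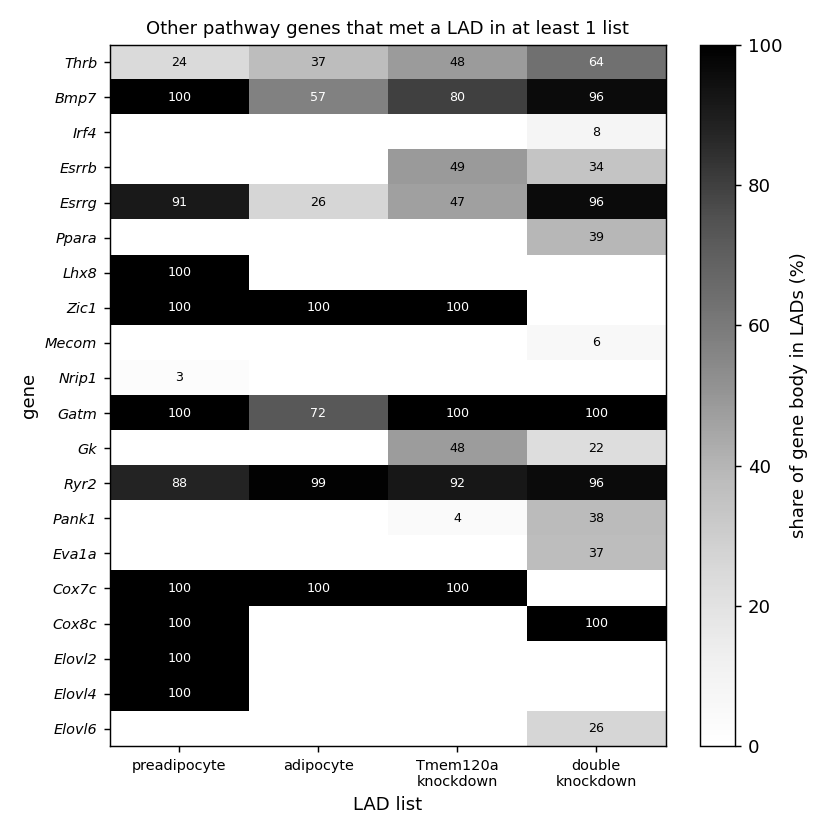
Share of the gene body in LADs (%, shade and number) in the 4 lists for the 20 of 113 other pathway genes that met a LAD in at least 1 list, with white cells at 0. Lhx8, Elovl2 and Elovl4 are filled in preadipocytes alone, while Irf4, Ppara, Mecom, Eva1a and Elovl6 are filled upon double knockdown alone.

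Of the close relatives of the members, Cox8c, Mecom, Elovl2, Elovl4 and Elovl6 met a LAD in at least 1 list, as given above. Relatives that met none in any list, as 63.7% of all genes, were Ucp2 and Ucp3, the deiodinases Dio1 and Dio3, the receptor Adrb1, Cideb and Cidec, Cox7a2, Cox8a and the coactivator Pprc1. Dio2 thus stood in LADs in every list while both other deiodinases stood outside, and Ucp1 did so upon double knockdown while both of its relatives stood outside. Ucp2 was 2007, 2024, 689 and 512 kb from a LAD and Ucp3 2022, 2039.9, 669 and 492 kb. Of the elongases, Elovl1, Elovl5 and Elovl7 met none.

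Genes of other cell types were read in the same way. Of 17 genes of white adipocytes, 2 met a LAD in preadipocytes, the fatty acid transporter Cd36 and the regulator Tcf21 (100% of the body each), or 11.8% of the list. None did in adipocytes, and Tcf21 did in both knockdowns (100%), or 5.88% of the list. Of 18 skeletal muscle genes, 4 met a LAD in preadipocytes, 6 in adipocytes, 4 upon Tmem120a knockdown and 5 upon double knockdown. These were 22.2%, 33.3%, 22.2% and 27.8% of that list, beside 26.2%, 23.3%, 27.5% and 29.5% of all genes.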

How the data were processed

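LaminB1-Dam and Dam libraries of 3T3-L1 cells, 1 of each in 4 conditions, were used as processed by the authors. They mapped reads to mm9, took log ratios of LaminB1-Dam to Dam per DpnI fragment and segmented them with DNAcopy. BWA and limma are named in the submitters' processing notes, and versions are not given in the sources used here. The deposited lists hold only the positions of LADs and of differential regions, so depth is unknown and no interval is given. The rule for the differential regions is not fully stated. Lists were assigned by the abbreviation each carries.

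Genes came from the GENCODE annotation of NCBIM37 (mm9), on 21 chromosomes, and starts count from 1. LAD borders fell at GATC sites for 97.8%, 96.5%, 98.6% and 98.8% of borders in preadipocytes, adipocytes, Tmem120a knockdown and double knockdown. Overlap, distance and the share of a window of 500 kb on each side of the start were computed in Python 3.11.15 with numpy 2.4.6, checked on simulated intervals, and drawn with matplotlib 3.10.9. No test was run, for want of replicates. The members and lists were chosen with earlier results of these data known. All members are named, with pathway genes that changed state and paralogs of members, of which 1 is not reported here. Of the comparison lists, Wdnm1 was not matched, Gk and Eva1a were matched through older symbols, and of 2 models of Fgfr1 the longer was used. Alternatives were LADs of at least 30 or 100 kb, gaps under 50 kb closed, at least 50% of the body, distance from the start, a promoter from 5 kb before to 1 kb after the start, and windows of 200 kb or 1 Mb on each side.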

Additional observations from a re-analysis of the deposited data

How the results depend on the processing

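Of 98 alternative values of the main counts and medians, 74 kept within 1.5 times of the value reported and 24 moved. These values carry no sign. The order of the lists by both medians was kept with gaps under 50 kb closed, but orders between lists turned with LADs of at least 100 kb. The median distance was then longer upon double knockdown than in adipocytes (444 kb), and 4 members were closer and 5 farther, in place of 9 and 0. The median distance became 324 kb in preadipocytes, 506 kb upon Tmem120a knockdown and 513 kb upon double knockdown, and the median window share 5.79%, 0% and 3.62%, with 0% in adipocytes. Upon double knockdown 1 member then met a LAD by body and 1 by promoter, 0 members differed in state from adipocytes, and of the other pathway genes 6 met a LAD upon Tmem120a knockdown and 5 upon double knockdown. With at least 30 kb the median window share in adipocytes was 0% and 9 pathway genes met a LAD upon double knockdown. Fewer LADs enter under both settings. Asking for at least 50% of the body left 1 member in a LAD in preadipocytes, 0 differing between preadipocytes and adipocytes and 1 between adipocytes and the double knockdown, and 5 and 6 pathway genes in the 2 knockdowns. With windows of 200 kb the median share was 0% in adipocytes and upon Tmem120a knockdown and 0 members had a recruited region, and with 1 Mb the shares were 15.8% and 14.3%. Of 381 values of single genes, 295 kept within 1.5 times and 86 moved. The cause of the moves under the last 2 kinds of setting was not tested. No paired analysis was possible because each condition has 1 pair of libraries. Depth is unknown, so a LAD missed for want of reads cannot be told from one that is absent.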
